A study of Mus musculus with 4 samples.

Results

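Imprinted genes are expressed mainly from the allele of 1 parent. A group of 10 of them with known roles in fetal growth was followed here through the trachea of mouse embryos: Igf2, Dlk1, Peg3, Peg10, Mest and Plagl1, which are known in the mouse as paternally expressed, and H19, Meg3, Cdkn1c and Grb10, which are known as maternally expressed. These 10 genes were among 11695 genes tested and 18194 on the array. They were chosen by name, through the gene symbols that the platform annotation gives to the probe sets. The symbols matched 30 probe sets, and the brightest of each gene stood for it, with the others given beside it. Alleles were not measured, so a signal is the sum over both.

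RNA came from trachea at embryonic day 16 on a C57BL/6 background, from 2 samples labelled as a1H knockout and 2 labelled as wild type. The label a1H is taken to mean Cacna1h, the gene for a pore subunit of low-voltage-activated calcium channels. The stated aim was to obtain homozygous embryos, and the labels give no sex, litter or pool for any sample. Nothing says that replicates came from separate animals, so p-values describe only how far these 4 arrays spread, and that spread may be technical. Values were MAS5 signals, which are brightness on a linear scale, made from amplified cDNA.

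Imprinting marks are set in the germ line and kept as DNA methylation at control regions, many of which lie at a promoter or between neighbouring genes. By the kinship view of imprinting, paternally expressed genes tend to favour fetal growth and maternally expressed ones to restrain it. Igf2 is the textbook growth factor of this kind, and Cdkn1c and Grb10 are textbook brakes. Igf2 and H19 are neighbours that share enhancers, and Dlk1 and Meg3 form another such pair.

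Several of the genes also host microRNAs, which the arrays did not measure. The 9 mature forms that RefSeq places inside the members on GRCm38.p6 are shown because the H19 probe set is annotated to both H19 and Mir675, and because they show what else a host transcript can carry. Capitals mark the seed, bases 2 to 8, and no seed was shared.
mmu-miR-675-5p, in H19: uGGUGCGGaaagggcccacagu
mmu-miR-675-3p, in H19: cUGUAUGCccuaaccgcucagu
mmu-miR-483-5p, in Igf2: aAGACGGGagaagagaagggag
mmu-miR-483-3p, in Igf2: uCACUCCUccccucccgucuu
mmu-miR-335-5p, in Mest: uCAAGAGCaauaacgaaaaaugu
mmu-miR-335-3p, in Mest: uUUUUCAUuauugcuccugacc
mmu-miR-770-5p, in Meg3: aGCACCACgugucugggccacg
mmu-miR-770-3p, in Meg3: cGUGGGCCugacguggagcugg
mmu-miR-1906, in Meg3: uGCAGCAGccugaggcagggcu

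Promoter windows from RefSeq, 250 bases before to 50 after a gene start on GRCm38.p6, were found for 7 of the 10 genes, with 14 starts in all. They differed widely in CpG content, the substrate of DNA methylation. Methylation was not measured, so a CpG count does not mark an imprinting control region. The first Grb10 start held 45 CpG in 300 bases, more than 98.1% of 32851 promoters, whereas the first Igf2 start held 2 and the second Meg3 start held 1, against a median of 7 over all promoters. The 3 windows below show the CpG-richest start and the 2 starts that matched a searched motif. For Grb10, the bases before the start at chr11:12037421-12037670 (minus strand) are given with CG in capitals. For Peg3, at chr7:6730420-6730669 (minus strand), capitals mark GGGGCCCC, letters reported to bind the PLAGL1 protein. For Meg3, at chr12:109540746-109540995 (plus strand), capitals mark TATAAA.
Grb10: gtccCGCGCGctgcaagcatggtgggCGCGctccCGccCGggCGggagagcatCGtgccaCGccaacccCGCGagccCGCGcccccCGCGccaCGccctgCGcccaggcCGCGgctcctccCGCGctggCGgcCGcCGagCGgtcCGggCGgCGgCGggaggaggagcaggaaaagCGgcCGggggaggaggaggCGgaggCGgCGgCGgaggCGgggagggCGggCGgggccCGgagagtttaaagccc
Peg3: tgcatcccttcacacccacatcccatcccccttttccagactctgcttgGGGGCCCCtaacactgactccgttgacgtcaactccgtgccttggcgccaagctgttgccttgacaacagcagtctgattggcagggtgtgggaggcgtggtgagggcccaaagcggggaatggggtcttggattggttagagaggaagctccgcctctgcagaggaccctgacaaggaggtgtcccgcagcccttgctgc
Meg3: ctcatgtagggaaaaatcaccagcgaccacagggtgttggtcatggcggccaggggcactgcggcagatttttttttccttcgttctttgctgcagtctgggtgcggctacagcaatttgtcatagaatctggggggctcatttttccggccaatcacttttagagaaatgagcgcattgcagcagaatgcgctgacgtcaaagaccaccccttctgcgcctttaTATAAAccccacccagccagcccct
Both strands were searched over the 300 bases. GGGGCCCC, which reads the same on both strands, was in 1 of the 14 member windows and in 1.08% of all promoters, and TATAAA was in 1 of 14 and in 13.6%. A match is a description of letters and not a binding site.

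The arrays themselves differed by replicate number. Every array had the same trimmed mean of 1500.0, but the 99th percentile of signal was 16089 and 15924 on the replicate 1 arrays of labelled knockout and wild type, and 22432 and 20907 on the replicate 2 arrays. Cacna1h did not read lower in the labelled knockout. Its brighter probe set read 981 and 631 there, against 630 and 538 in wild type, and the deleted part and probe positions are not known here, so the labels could not be checked. Labelled knockout replicate 2 carried placental transcripts, whose values are given with those of Cdkn1c and Peg10. Markers of cartilage, airway epithelium, smooth muscle and fibroblasts read above 100 on all arrays, in 32 of 32 genes on the array.

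None of the 10 imprinted growth genes passed the test between genotypes. Of 11695 genes tested with limma, 0 passed a Benjamini-Hochberg adjusted p of 0.05, or 0%, and 536, or 4.58%, had an unadjusted p under 0.05, which is 2.83% of all genes tested higher and 1.75% lower in the labelled knockout. The 10 members passed neither threshold. Their log2 differences, labelled knockout minus wild type, ran from -0.12 for Grb10 to 0.45 for Cdkn1c, with SEs of 0.29 to 0.46 and adjusted p-values of 0.895 to 0.992 in limma. On the deposited scale the groups overlapped in all 10 members, whereas they did not overlap in 36.1% of genes tested. The half-widths of the 95% intervals lay between 0.69 and 1.08. For 7 members the interval lay within a 2-fold difference in either direction, and for Dlk1, Peg10 and Cdkn1c it reached beyond a 2-fold rise.

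Among the paternally expressed genes the growth factor Igf2 read 20368 and 32152 in labelled knockout, against 21673 and 32534 in wild type. The replicate 2 array was the higher within each genotype, and the groups overlapped almost entirely. Its log2 difference was -0.05 with an SE of 0.37. Dlk1, a membrane protein with EGF-like repeats that restrains fat cell differentiation, read 17576 and 32551 in labelled knockout, against 17800.3 and 27636 in wild type. Here too the replicate 2 arrays were higher, and the log2 difference was 0.11 (SE 0.39). Peg3, a zinc-finger protein, read 20133 and 24402 in labelled knockout, against 19734 and 27352 in wild type, so that the wild-type values enclosed the knockout ones. Mest, a hydrolase-fold protein of mesoderm, read 17088 and 24060.4 in labelled knockout, against 17953 and 22266 in wild type. The knockout values enclosed the wild-type ones, with a log2 difference of 0.02 (SE 0.29). Plagl1, a zinc-finger transcription factor known to regulate other imprinted genes, read 26423 and 33667 in labelled knockout, against 29418 and 35198 in wild type. Its log2 difference was -0.11 (SE 0.34), with each knockout array a little below the wild-type array of the same number. Peg10, a retrotransposon-derived gene needed for the placenta, read 3892 and 10509 in labelled knockout, against 5974 and 6324 in wild type. The 2 knockout arrays lay on either side of wild type, and the log2 difference of 0.06 (SE 0.41) averaged -0.62 and 0.73 within replicate numbers 1 and 2.

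The maternally expressed genes gave a like picture. The H19 and Mir675 probe set, read here as H19 RNA, gave 21331 and 36463 in labelled knockout, against 21633 and 33646 in wild type, a log2 difference of 0.05 (SE 0.40). As in every other member, both replicate 2 arrays were above both replicate 1 arrays. Meg3, the long noncoding RNA beside Dlk1, read 23034 and 28858 in labelled knockout, against 24455 and 28846 in wild type, a log2 difference of -0.04 (SE 0.31). Grb10, an adaptor that binds the insulin and IGF1 receptors and dampens their signals, read 21033 and 27363 in labelled knockout, against 23570.5 and 28884 in wild type. This gene is expressed from the maternal allele in most mouse tissues and from the paternal one in neurons, and its log2 difference was -0.12 (SE 0.31). Cdkn1c, the cyclin-dependent kinase inhibitor p57, stood apart with 6635 and 18641 in labelled knockout, against 6655 and 9943 in wild type. The replicate 1 arrays were alike and the replicate 2 arrays differed by 0.91 on the log2 scale, so the mean of 12638 ± 8489 in labelled knockout, against 8299 ± 2325 in wild type (SD, n = 2 each), rests on 1 array.

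**Figure D1:**
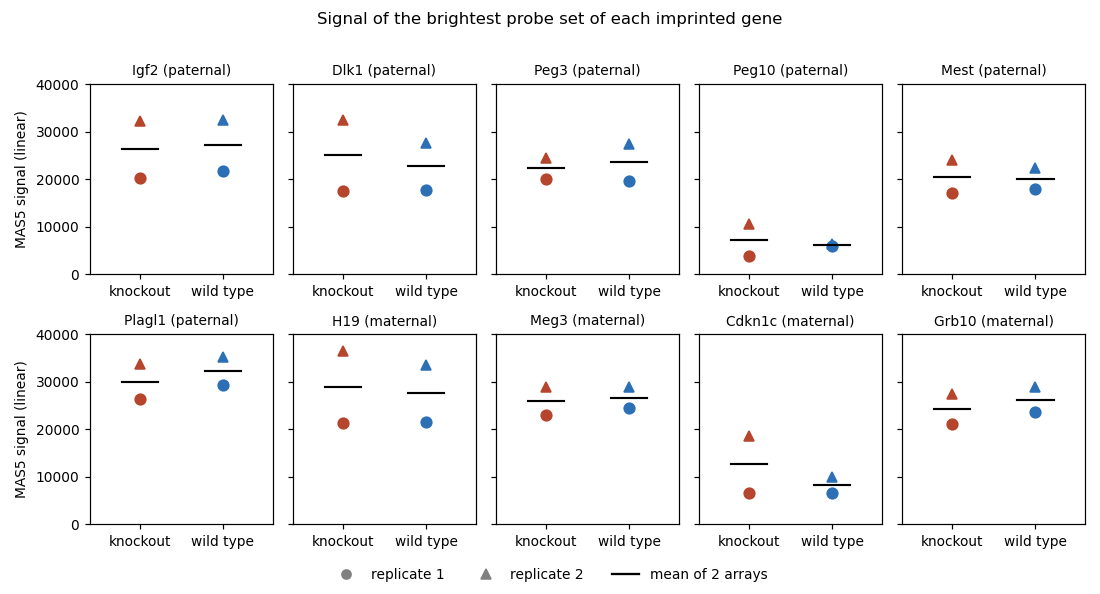
MAS5 signal (vertical axis, linear) of the brightest probe set of each of the 10 imprinted genes on the 2 labelled knockout arrays (left, red) and the 2 wild-type arrays (right, blue), with circles for replicate 1, triangles for replicate 2 and bars for the mean of 2 arrays. In every panel the replicate 2 array is the higher within each genotype, and Cdkn1c reads 18641 on knockout replicate 2 against 9943 on wild-type replicate 2.

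Paternally and maternally expressed genes had medians close to each other and to 0. The 6 paternally expressed genes had a median log2 difference of -0.02, with 3 lower and 3 higher in the labelled knockout, and the 4 maternally expressed genes had a median of 0.00, with 2 lower and 2 higher. The median over all genes tested was 0.04, and 44.1% of them were lower. Within replicate number 1 the medians were -0.08 for the paternally and -0.05 for the maternally expressed genes, and within replicate number 2 they were 0.05 and 0.06. The paternal median minus the maternal one was -0.02 over all arrays. Pseudocount, filter, median centring, trend, array weights and replicate block left it at -0.02. Most of these could not move it, since they change only the spread or shift all genes alike. With quantile normalisation, the mean of all probe sets, single arrays left out or H19 left out, it lay between -0.05 and 0.03. The medians themselves moved with single arrays, from -0.31 to 0.27 for the paternally expressed genes. The directions also turned with scaling, with 9 of 10 members lower after quantile normalisation and 10 of 10 higher after each array was centred on its median, where the median of all genes was 0.27. These are descriptions of 10 chosen genes and carry no test.

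The larger difference among these genes lay between replicate numbers. All 10 members were higher on replicate 2 than on replicate 1 in labelled knockout, by a median of 0.58 on the log2 scale, and all 10 were higher on replicate 2 in wild type, by 0.39. Among the 2379 tested genes with a mean signal at or above that of Peg10, the dimmest member, 72.7% were higher on replicate 2 in labelled knockout and 74.3% in wild type, by medians of 0.21 and 0.17. The upper percentiles of the arrays given above moved the same way. So did the geometric mean signal of 9 hybridisation control probe sets, at 4744 and 14007 in labelled knockout, against 4787 and 11598 in wild type. The part of these array differences in the shift was not tested. After quantile normalisation, 4 of 10 members were higher on replicate 2 in labelled knockout and 6 of 10 in wild type, with medians of -0.04 and 0.01. On that scale Igf2 and H19 no longer overlapped between groups and were lower in the labelled knockout, with log2 differences of -0.17 and -0.06. That is 2 of 10 members, where 40.2% of all genes tested did not overlap.

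**Figure D2:**
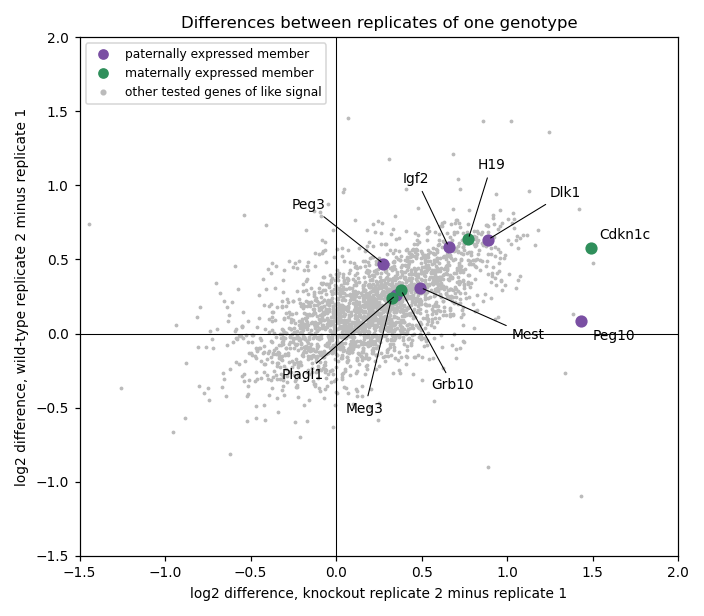
Log2 difference of replicate 2 minus replicate 1 in labelled knockout (horizontal axis) and in wild type (vertical axis), with purple points for paternally expressed members, green points for maternally expressed members and grey points for the other tested genes at or above the signal of the dimmest member. All 10 members lie above 0 on both axes, and Cdkn1c and Peg10 lie farthest right, at 1.49 and 1.43.

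Cdkn1c and Peg10 had the widest range over the 4 arrays, 1.49 and 1.43 on the log2 scale, and both were highest on labelled knockout replicate 2. Within replicate number 2 the log2 difference was 0.91 for Cdkn1c and 0.73 for Peg10, against a median of -0.01 over the other 8 members. Labelled knockout replicate 2 held transcripts of the placenta. All 8 placental markers on the array were highest there, and their summed signal was 623 and 147741 in labelled knockout, against 764 and 1002 in wild type. Tpbpb, 1 of these markers, read 209 and 38677 in labelled knockout, against 290 and 248 in wild type. Of the 8 markers, 5, 4 and 4 read under 100 on labelled knockout replicate 1 and the 2 wild-type arrays. Markers of fetal liver and yolk sac, 8 on the array, summed to 2761 and 31770 in labelled knockout, against 1241 and 47206 in wild type. Different genes made up these sums. On labelled knockout replicate 2 Ttr read 27074.5, Afp 2282 and Apoa1 447. On wild-type replicate 2 Ttr read 4684, Afp 24975 and Apoa1 11263. Skeletal muscle markers, 11 of 11 measured, summed to 149138 and 208548 in labelled knockout, against 135820 and 193510 in wild type. More cells of a type and more RNA per cell cannot be told apart in such tissue, and the part of other tissues in the imprinted signals was not tested.

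Without labelled knockout replicate 2 the log2 difference was -0.29 for Cdkn1c and -0.66 for Peg10, so both turned. Without labelled knockout replicate 1, which leaves replicate 2 alone on the knockout side, the log2 difference was 1.19 for Cdkn1c and 0.77 for Peg10. Both genes were picked for their wide range over these same arrays, so these values give no separate support.

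**Figure D3:**
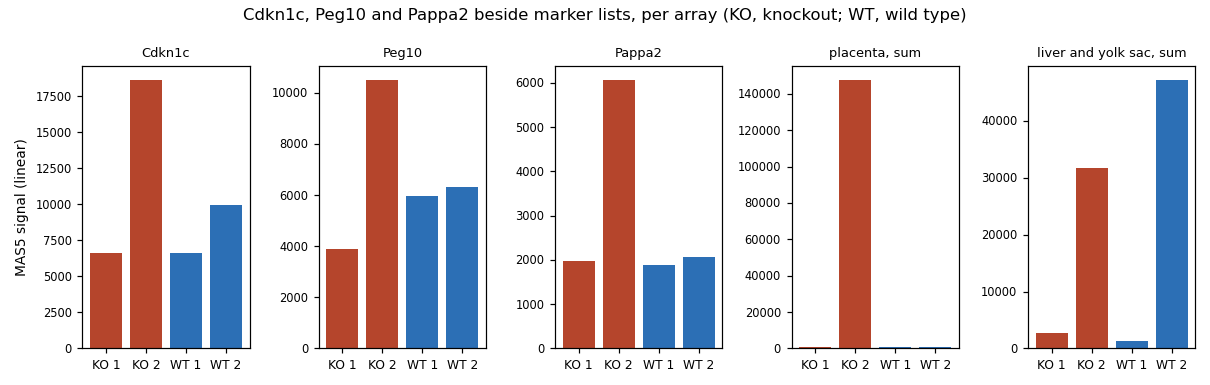
MAS5 signal (vertical axes, linear, each from 0) on the 2 labelled knockout arrays (KO, red) and the 2 wild-type arrays (WT, blue) for Cdkn1c, Peg10 and Pappa2, with the summed signal of 8 placental markers and of 8 fetal liver and yolk sac markers. The 3 genes and the placental sum are highest on knockout replicate 2, and the liver and yolk sac sum is highest on wild-type replicate 2. On knockout replicate 2 the liver and yolk sac sum is mostly Ttr, at 27074.5.

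The genes whose values were nearest to these 2 members over the 4 arrays were found by Euclidean distance of centred log2 signals among all genes tested. For Cdkn1c they were Tnnt1, a troponin of slow skeletal muscle, at a distance of 0.08, Rarres2, which encodes chemerin, at 0.20, and Tubb3, a neuronal tubulin, at 0.21. Tnnt1 read 8137 and 23086 in labelled knockout, against 8368 and 11641 in wild type. For Peg10 they were Fmod, the matrix proteoglycan fibromodulin, at 0.06, and Tcf24 and Dcx, the neuronal doublecortin, both at 0.23. Fmod read 8896 and 23264 in labelled knockout, against 12819 and 14045 in wild type. They were picked for this likeness, and 4 arrays are too few to tell it from array differences.

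Further probe sets of the same genes did not always follow the brightest one. Of 20 further probe sets, 17 passed the filter on level, and 13 of these 17 read lower in the labelled knockout. Their median log2 difference was -0.42. None passed limma fitted over all 22519 probe sets above the filter, where 0% passed, and the smallest adjusted p among them was 0.872. Over those 22519, 52.8% were below 0, 18.5% were lower without overlap, and 4.08% had an unadjusted p under 0.05, as 2 of the 17 did. In 7 of the 17 the groups did not overlap and the labelled knockout was lower, and in 0 was it higher. Over all 7884 probe sets that were not the brightest of a tested gene, 59% were lower, 22.8% were lower without overlap and the median was -0.08. Meg3 supplied 10 of the 17, so they are not independent. Among the other 7, from 5 genes, 6 were lower.

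The brightest Plagl1 probe set and its others differed in this way. Probe set 1450533_a_at read 5546 and 3678 in labelled knockout, against 8837 and 6759 in wild type. Both knockout arrays lay below both wild-type ones, with a log2 difference of -0.77 (SE 0.26, unadjusted p = 0.021, adjusted p = 0.872 in limma over probe sets), against -0.11 on the brightest one. Probe set 1438588_at read 6752 and 4609.9 in labelled knockout, against 7500 and 7421 in wild type, a log2 difference of -0.42. Peg3 had 2 further probe sets without overlap, 1417355_at with -0.54 and 1417356_at with -0.37, against -0.07 on its brightest. The first of these read 4609 and 5287 in labelled knockout, against 5862 and 8814 in wild type. Igf2 on 1415931_at read 1239 and 2262 in labelled knockout, against 1656 and 3516 in wild type, with overlap and a log2 difference of -0.52. The further probe set of Dlk1 did not go this way, at 0.09.

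Meg3, whose transcript is long and variably spliced, had 11 probe sets, and its 10 further ones ran from -0.80 to 0.23 with 7 lower. Probe set 1436713_s_at read 8221 and 8344 in labelled knockout, against 11525 and 11399 in wild type, with little spread in either group. Its log2 difference was -0.47 (SE 0.19, unadjusted p = 0.042, adjusted p = 0.872 in limma). The dimmest, 1429257_at, read 311 and 319 in labelled knockout, against 482 and 652 in wild type. By contrast 1426758_s_at read 9843 and 17560 in labelled knockout, against 9141 and 13774 in wild type, a log2 difference of 0.23 with overlap. Grb10 had -0.42 on 1430164_a_at, at 2106 and 1167 in labelled knockout, against 2148 and 2052 in wild type. The dimmest Grb10 probe set, 1425457_a_at, read 183 and 177 in labelled knockout, against 289 and 451 in wild type. It and 2 dim ones of Peg3 did not pass the filter.

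With the mean of all probe sets in place of the brightest, the log2 difference was -0.50 for Grb10, -0.43 for Plagl1, -0.40 for Peg3, -0.29 for Igf2 and -0.24 for Meg3, and 0 members passed in limma. The median of the 10 was then -0.11, against -0.01 on the brightest.

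The lower readings were larger on the replicate 2 arrays, with a median over the 17 probe sets of -0.63 there and -0.21 within replicate number 1. With that knockout array left out, 15 of the 17 were lower and the median was -0.21. The 3' to 5' signal ratio of actin, a measure of how complete the RNA was, was 1.90 and 1.97 in labelled knockout, against 1.69 and 1.66 in wild type, so it did not overlap. That of Gapdh was 1.36 and 1.61 in labelled knockout, against 1.26 and 1.403 in wild type, with overlap. The position of the probe sets along their transcripts is not known here, and the part of RNA completeness in these differences was not tested.

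**Figure D4:**
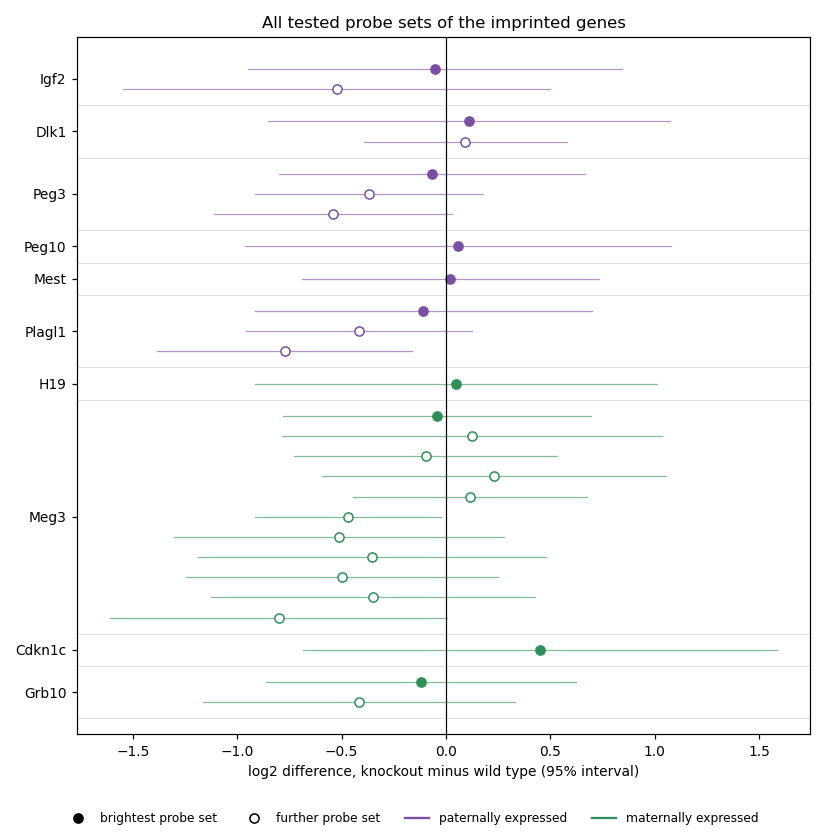
Log2 difference, labelled knockout minus wild type (horizontal axis, with 95% intervals of the limma fit over probe sets), for the 27 probe sets of the 10 imprinted genes that passed the filter, grouped by gene and ordered from bright to dim, with filled points for the brightest probe set of a gene. The filled points lie between -0.12 and 0.45, and 13 of the 17 open points lie below 0, down to -0.80 for Meg3.

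Genes that transmit or restrain the IGF signal were next compared. Ligands such as Igf2 and Igf1 act through the receptor encoded by Igf1r, Igf2r clears Igf2, and binding proteins and their proteases set how much ligand is free. Of 25 listed genes of this axis 21 were tested and 0 passed, with 15 lower, 6 higher and a median log2 difference of -0.16. The groups did not overlap in 8 of the 21, lower in the labelled knockout in all 8, where 14.6% of all genes tested were lower without overlap. The direction depended on scaling: after each array was centred on its median the IGF median was 0.07 with 10 of 21 lower, but the median of all genes was then 0.27, against 0.04 before. Without labelled knockout replicate 1 the median was -0.26 with 13 of 21 lower, and without replicate 2 it was -0.12. Markers of the tissue also read lower in the labelled knockout, in 7 of 10 for cartilage (median log2 difference -0.26) and in 8 of 9 for airway epithelium (median -0.28). Over all genes tested 44.1% were lower. Medians were -0.09 for fibroblasts, -0.19 for smooth muscle and -0.17 for endothelium, and 9 of 11 skeletal muscle markers read higher (median 0.07). All 4 markers of thymic epithelium read higher (median 1.89), and 3 of these passed the filter on level. The actin 3' to 5' ratio separated the groups as given above, and that of Gapdh did not. The part of these differences in the IGF values was not tested.

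Igf1r, the signalling receptor, had the smallest unadjusted p of the list. It read 4725 and 4403 in labelled knockout, against 6155 and 7439 in wild type, and the groups did not overlap. Its log2 difference was -0.57 (SE 0.18, unadjusted p = 0.015, adjusted p = 0.875 in limma), and the 3 tested probe sets of the gene were all lower. Igf1, the other IGF ligand, read 11526 and 12089 in labelled knockout, against 14134 and 15739 in wild type, a log2 difference of -0.34 (SE 0.21). All 4 of its tested probe sets were lower. Pappa, a protease that frees IGF by cleaving binding proteins, read 1263 and 460 in labelled knockout, against 1925 and 1477 in wild type, a log2 difference of -1.12 (SE 0.46, adjusted p = 0.875 in limma). Its relative Pappa2, also known from the placenta, read 1982 and 6070 in labelled knockout, against 1875 and 2071 in wild type, so the log2 difference of 0.81 rests on the array with placental transcripts. Igf2r, itself maternally expressed in the mouse, read 12792 and 11219 in labelled knockout, against 13845 and 12969 in wild type, a log2 difference of -0.16. The RNA-binding proteins Igf2bp1 and Igf2bp3, which bind Igf2 mRNA among others, had 0.23 and 0.17 with overlapping groups.

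Other imprinted genes were compared by the parent whose allele is expressed, and 0 of them passed. Of 22 further genes listed as paternally expressed in some mouse tissue 14 were tested, with 8 lower and a median log2 difference of -0.05. The groups did not overlap in 1 of them, where 36.1% of all genes tested did not overlap. Kcnq1ot1, the paternally expressed noncoding RNA that silences Cdkn1c in cis, read 7056 and 4409 in labelled knockout, against 6782 and 8217 in wild type. Its log2 difference was -0.42 (SE 0.25), all 3 tested probe sets were lower, and labelled knockout replicate 2 was the lowest array. Airn of the same list was also lowest on that array, at 6436, with all 5 tested probe sets lower and -0.12 on its brightest. On that brightest probe set the groups overlapped, with 0.08 within replicate number 1 and -0.32 within replicate number 2. Airn was named after its values were seen. Ndn, which encodes the growth-restraining protein necdin, read 13688 and 26317 in labelled knockout, against 11985 and 15890.0 in wild type, a log2 difference of 0.46 (SE 0.35). Mcts2 and Inpp5f had 0.32 and -0.29 with overlapping groups.

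Of 25 further genes listed as maternally expressed 17 were tested, with 13 higher in the labelled knockout and a median of 0.09, or 0.00 and 0.23 within replicate numbers 1 and 2. The groups did not overlap in 4 of them, 2 in each direction, where 36.1% of all genes tested did not overlap. Asb4, an ankyrin-repeat protein beside Peg10, read 3865 and 5716 in labelled knockout, against 4385 and 2816 in wild type, a log2 difference of 0.42 (SE 0.28). Nap1l4, a histone chaperone near Cdkn1c, read 15832 and 18003 in labelled knockout, against 14245 and 14121 in wild type, without overlap and with 0.25. Tssc4 of the same domain had 0.23, and Copg2, beside Mest, had 0.21. Rian, a noncoding RNA of the Dlk1 and Meg3 domain, had -0.08 on its brightest probe set and -0.25 to -0.64 on 3 others; it was named after its values were seen.

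Factors that set, keep, read or remove DNA methylation or imprinting marks were measured as well, so the counts mix opposite roles. Of 18 listed genes 15 were tested, 9 were lower, 6 were higher, and the median log2 difference was -0.13. The groups did not overlap in 9 of the 15, which is 6 lower and 3 higher, where 36.1% of all genes tested did not overlap. Trim28, the co-repressor that guards imprints, read 10758 and 9575 in labelled knockout, against 8569 and 5697 in wild type, a log2 difference of 0.54 (SE 0.24, adjusted p = 0.875 in limma). Uhrf1, which brings the maintenance methyltransferase to replicating DNA, read 13780 and 13334 in labelled knockout, against 10489 and 11137 in wild type, a log2 difference of 0.33. Tet2, a methylcytosine oxidase, and Arid4a, a chromatin protein, had -0.37 and -0.38, both without overlap. None of these passed.

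Genes named as inhibitors of cyclin-dependent kinases, among them the Cdkn1c relatives Cdkn1a and Cdkn1b, were compared last. Of 7 listed genes 5 were tested, 2 lower and 3 higher, with a median of 0.07. The groups did not overlap in 3 of the 5, where 36.1% of all genes tested did not overlap. Cdkn1b, which encodes p27, read 9089 and 8078 in labelled knockout, against 10751 and 11228 in wild type, a log2 difference of -0.36 (SE 0.19) without overlap. Cdkn2c had -0.36 and Cdkn3, a phosphatase of cycling cells, had 0.40, both without overlap, while Cdkn1a, which encodes p21, had 0.07 with overlap. No listed gene passed in limma.

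**Figure D5:**
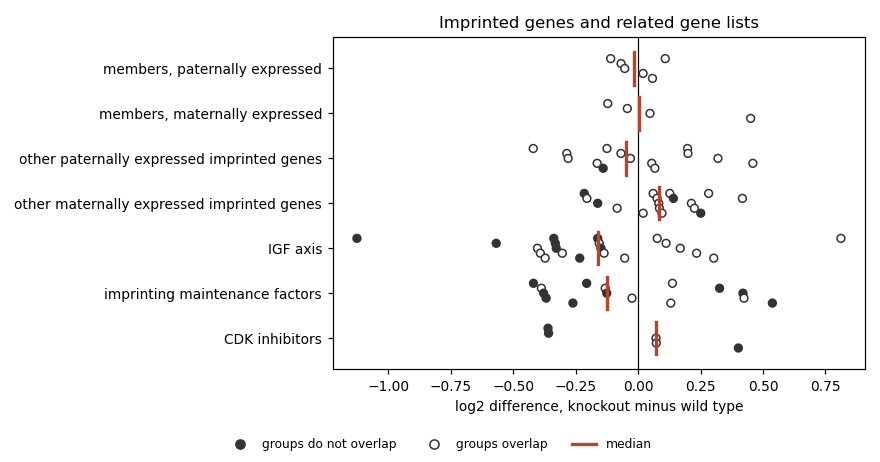
Log2 difference, labelled knockout minus wild type (horizontal axis), of each tested gene in the 2 classes of members and in 5 related gene lists, with filled points where the 2 groups of arrays do not overlap and a red bar at the list median. The member medians lie at -0.02 and 0.00, and the IGF axis median lies at -0.16 with 8 filled points below 0.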

How the data were processed

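Total RNA from 4 trachea samples was amplified to cDNA, biotin-labelled and hybridised to Affymetrix mouse arrays, per the labels' protocols. The deposited intensity values are MAS5 signals, linear brightness per probe set that the authors scaled to a common trimmed mean, per the submitters' processing notes for MAS5 and the values themselves for the scaling. No scan batch is recorded in the labels or file headers. Probe sets were named through the platform annotation. From these values, log2(signal + 16) was fitted with limma 3.58.1 in R 4.3.3 (lmFit, eBayes with an intensity trend, genotype only, all 4 arrays). Each gene was represented by its probe set of highest mean, kept if that mean reached a signal of 397, the median of all probe sets, and p-values were adjusted by Benjamini-Hochberg over 11695 genes. A second fit took 22519 probe sets. The H19 probe set, annotated to 2 genes, was added to the genes with 1 symbol. The fit was also run on simulated data with noise independent between arrays. Such data lack the replicate differences seen here, so the run does not show how the fit performs on these arrays. Intensities measured with 2 arrays a group limit precision by their number. The 10 members and all gene lists were chosen with earlier results of these data known. The 10 members were named whatever their values, and of each list the 4 tested genes with the smallest unadjusted p, with Igf1, Igf1r, Igf2r and the Igf2bp genes in any case. For the 2 members of widest range the 3 nearest genes were named, and of a marker list at most 3 tested genes of largest mean signal. Alternatives were the pseudocount, the filter, quantile normalisation, median centring, the trend, array weights, the probe set rule, the replicate block and leaving out arrays. Python 3.11.15 and matplotlib 3.10.9 drew the figures.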

Additional observations from a re-analysis of the deposited data

How the results depend on the processing

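The 10 small differences had no stable direction. With quantile normalisation, and likewise with the replicate block with quantile normalisation, Dlk1 (-0.0018), Peg10 (-0.034), Mest (-0.061) and H19 (-0.056) turned lower. Centring each array on its median moved the median of all genes from 0.04 to 0.27 and turned Igf2 (0.18), Peg3 (0.16), Plagl1 (0.12), Meg3 (0.19) and Grb10 (0.11) higher, moved the median of the 17 further probe sets to -0.18, and left 10 of 21 IGF genes lower with a median of 0.071. Leaving out 1 array at a time gave log2 differences of -0.38 to 0.28 for Igf2, -0.34 to 0.55 for Dlk1, -0.30 to 0.17 for Peg3, -0.66 to 0.77 for Peg10, -0.23 to 0.27 for Mest, -0.28 to 0.065 for Plagl1, -0.34 to 0.43 for H19, -0.21 to 0.12 for Meg3, -0.29 to 1.19 for Cdkn1c and -0.31 to 0.069 for Grb10. It gave 0 to 501 genes passing adjusted p 0.05 in limma, 0 to 2 of them members, a maternal median of -0.30 to 0.28, a further probe set median of -0.46 to -0.21, and an IGF median of -0.26 to -0.12. The 501 came without knockout replicate 1, and 104 without knockout replicate 2. The cause was not tested, and each such fit rests on 1 array in a group and assumes that it varies like the other group. With the replicate number as a replicate block, 0 genes passed in limma and Cdkn1c kept 0.45 with an adjusted p of 0.433; same-numbered arrays had a correlation of deviations of 0.32 over genes, and 2 pairs do not settle whether the numbers pair the samples. Pseudocount, filter, trend and array weights changed no call of a member, nor did the mean of all probe sets, which moved Peg3 to -0.40, Plagl1 to -0.43, Grb10 to -0.50, Igf2 to -0.29, Meg3 to -0.24 and the median of the 10 to -0.11. With 2 arrays a group the smallest exact permutation p is 0.333.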
